A study of Rattus norvegicus with 36 samples.

Results

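Cyp4a1, Cyp4a3 and Cyp4a8 are the rat cytochrome P450 4A genes that the array annotation named alone on a probe set. They were found by gene symbol, and each gene was read from the probe set with the highest mean over all arrays: 1368934_at for Cyp4a1, 1370397_at for Cyp4a3 and 1393894_at for Cyp4a8. A further probe set of Cyp4a8, 1368607_at, served as a check, so the family held 3 genes and 4 probe sets, of 14217 genes and 31042 probe sets in all. Probe set 1394844_s_at carries the names of both Cyp4a3 and Cyp4a2 and was used for neither gene alone; no probe set named Cyp4a2 by itself.

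The study measured RNA from the left liver lobe of male Sprague Dawley rats on 36 Affymetrix 3′ expression arrays. The rats, 7 weeks old at the start, received corn oil alone (vehicle) or TBPH, the brominated phthalate ester bis(2-ethylhexyl) tetrabromophthalate, in corn oil by oral gavage on 5 consecutive days, and tissue was taken 1 day after the last dose. The 3 lower doses were 0.07, 0.71 and 7.06 mg/kg, the 2 higher ones 70.6 and 706 mg/kg, and vehicle and each dose had 6 arrays. Strain, sex, diet, oil and gavage were shared by all groups, so vehicle rats were gavaged too, and all 5 doses were set against the same vehicle arrays. The labels number the replicates without saying that each array was a separate animal, so the p-values below measure only the spread between these samples. The labels name no batch.

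The CYP4A enzymes are membrane-bound monooxygenases of the endoplasmic reticulum that add a hydroxyl group to the last (omega) carbon of medium- and long-chain fatty acids, the first step on the route to dicarboxylic acids. In rat liver the genes are textbook targets of PPAR alpha, the fatty acid receptor that pairs with RXR and is activated by fibrate drugs and by metabolites of phthalate esters. Cyp4a1 is the classical fibrate-inducible lauric acid omega-hydroxylase of rat liver, Cyp4a3 is a close relative with the same kind of activity, and Cyp4a8 is better known from rat kidney.

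The stretch upstream of a gene is where PPAR alpha and RXR would be looked for, so the 250 bases before the annotated start are shown for Cyp4a3 and Cyp4a8, and for Cyp4a2 because its transcript shares a probe set with Cyp4a3. Sequences are from RefSeq, build GRCr8, written 5′ to 3′ along the gene (all on the minus strand), with the hexamer AGGTCA, the half-site that nuclear receptors of this class bind, in capitals. RefSeq's table had an entry for 2 of the 3 genes, and Cyp4a1 is only named here. Cyp4a3 lies downstream of chr5:134352237-134352486, Cyp4a2 of chr5:134170909-134171158 and Cyp4a8 of chr5:133970227-133970476.
Cyp4a3: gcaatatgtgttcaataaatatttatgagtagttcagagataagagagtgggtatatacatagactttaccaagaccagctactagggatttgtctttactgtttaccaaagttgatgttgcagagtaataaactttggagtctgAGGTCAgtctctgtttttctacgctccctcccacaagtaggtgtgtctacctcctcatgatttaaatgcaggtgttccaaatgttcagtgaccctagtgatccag
Cyp4a2: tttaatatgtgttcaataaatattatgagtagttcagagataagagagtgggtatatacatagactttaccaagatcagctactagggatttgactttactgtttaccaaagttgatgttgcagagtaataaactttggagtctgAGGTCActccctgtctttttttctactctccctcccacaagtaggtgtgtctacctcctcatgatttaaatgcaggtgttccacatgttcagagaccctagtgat
Cyp4a8: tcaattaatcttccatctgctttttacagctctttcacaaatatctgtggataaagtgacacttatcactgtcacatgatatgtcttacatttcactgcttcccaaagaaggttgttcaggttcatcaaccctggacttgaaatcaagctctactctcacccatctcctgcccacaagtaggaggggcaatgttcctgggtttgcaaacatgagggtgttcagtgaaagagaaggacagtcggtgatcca
The Cyp4a3 and Cyp4a2 stretches were 92.5% identical in an end-to-end alignment, and each held 1 AGGTCA, whose first base lay 105 bases before the start. The Cyp4a8 stretch was 59.9% identical to that of Cyp4a3 and held no AGGTCA on either strand. Searched on both strands of 33469 rat promoters of the table (here from 250 bases before to 50 after the start), AGGTCA stood in 14.1%. The direct repeat of that half-site with 1 base between the copies, the form described for PPAR and RXR and one that contains the half-site, stood in 0.0508% of promoters and in none of these 3 windows. These matches describe letters and not binding. In the annotation of that build the genes stand on chromosome 5 in the order Cyp4a8, Cyp4a2, Cyp4a2l1, Cyp4a3, Cyp4a1 and Cyp4b1.

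All values below are log2 expression values on the RMA scale. Hepatocyte markers were bright on every array: the mean of 8 of 8 listed genes, among them albumin and apolipoprotein A1, ran from 12.9 to 13.1, whereas 4 kidney tubule markers averaged 4.05 to 4.39. Over all probe sets the median level was 5.09, and no probe set passed a Benjamini-Hochberg threshold of 0.05 at any dose against vehicle in limma (0%), whereas between 3.07% and 5.24% had an unadjusted p under 0.05; without replicate 3 of 706 mg/kg, the unadjusted count at that dose was 1913 in place of 1080. The difference between the 3′ and 5′ GAPDH control probe sets, which grows as RNA breaks down, was at most 0.09 on 34 arrays and stood apart at 0.41 on replicate 5 of 70.6 mg/kg and at 0.33 on replicate 4 of 0.07 mg/kg.

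Cyp4a1 was highly expressed in every group and did not pass the test at any dose. Its lowest, median and highest values were 11.01, 11.24 and 11.72 in vehicle livers. They were 11.30, 11.42 and 12.04 at 0.07 mg/kg and 10.84, 11.26 and 11.58 at 0.71 mg/kg. They were 10.78, 11.39 and 11.52 at 7.06 mg/kg, 10.58, 11.23 and 11.46 at 70.6 mg/kg, and 11.15, 11.47 and 11.69 at 706 mg/kg. The range of each dose group overlapped that of vehicle, and 0 of the 15 pairs of groups were free of overlap. Of all probe sets, 1.68% had at least 1 such pair, so 0 pairs is the usual count and not particular to Cyp4a1, nor to Cyp4a3 and Cyp4a8 below. The highest single array was replicate 6 of 0.07 mg/kg. The lowest was replicate 5 of 70.6 mg/kg, 1 of the arrays that stood apart in GAPDH.

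Group means of Cyp4a1 stood in the order 0.07, 706, 7.06 mg/kg, vehicle, 0.71 and 70.6 mg/kg, with no neighbour differing beyond its spread. The mean was 11.45 ± 0.19 at 706 mg/kg and 11.29 ± 0.31 in vehicle livers (SD, n = 6 each), a log2 difference of 0.17 (95% interval -0.14 to 0.47; 1.12-fold, 0.908 to 1.39) with a limma adjusted p of 1. Leaving out single arrays moved it between 0.11 and 0.25, the highest without vehicle replicate 5. At 70.6 mg/kg the mean was 11.14 ± 0.31, against the same vehicle mean, a difference of -0.14 (-0.45 to 0.16; limma adjusted p = 0.937). That difference was -0.03 without replicate 5 of 70.6 mg/kg, which stood apart in GAPDH, and -0.06 without vehicle replicate 5. At 0.07 mg/kg the mean was 11.52 ± 0.27, a difference of 0.23 (-0.07 to 0.54; limma adjusted p = 1). The 0.71 and 7.06 mg/kg differences were -0.09 and 0.02. In whole liver, fewer cells of a type and less RNA per cell cannot be told apart.

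Cyp4a3 was likewise highly expressed and did not pass the test at any dose. Its lowest, median and highest values were 11.23, 11.59 and 11.84 in vehicle livers, 11.45, 11.73 and 11.87 at 0.07 mg/kg, and 11.26, 11.52 and 11.73 at 0.71 mg/kg. They were 11.08, 11.51 and 11.67 at 7.06 mg/kg, 11.10, 11.36 and 11.62 at 70.6 mg/kg, and 11.42, 11.62 and 11.98 at 706 mg/kg. Again every dose range overlapped the vehicle range, and 0 of 15 pairs of groups were free of overlap (1.68% of all probe sets had at least 1). The order of the means was 0.07, 706 mg/kg, vehicle, 0.71, 7.06 and 70.6 mg/kg, with no neighbour differing beyond its spread.

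The Cyp4a3 mean was 11.65 ± 0.19 at 706 mg/kg and 11.54 ± 0.24 in vehicle livers (SD, n = 6 each), a difference of 0.11 (-0.12 to 0.35; 1.08-fold, 0.922 to 1.27; limma adjusted p = 1). At 70.6 mg/kg it was 11.39 ± 0.20, a difference of -0.15 (-0.38 to 0.08; limma adjusted p = 0.922). Leaving out single arrays moved the 706 mg/kg difference between 0.05 (without replicate 5 of that dose) and 0.17, and the 70.6 mg/kg difference between -0.21 and -0.09, the smallest sizes of the second being without vehicle replicate 2 or replicate 5 of 70.6 mg/kg. The 0.07, 0.71 and 7.06 mg/kg differences were 0.14, -0.04 and -0.10. The probe set shared with Cyp4a2 gave differences of 0.06, 0.02, -0.07, -0.16 and 0.05 from the lowest to the highest dose, so its sign at 0.71 mg/kg was the opposite of that of Cyp4a3.

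Cyp4a8 was read at a dim level, below the median of all probe sets. Its lowest, median and highest values were 4.30, 4.77 and 5.01 in vehicle livers, 4.66, 4.81 and 5.09 at 0.07 mg/kg, and 4.71, 4.87 and 5.10 at 0.71 mg/kg. They were 4.45, 4.76 and 4.84 at 7.06 mg/kg, 4.50, 4.80 and 5.05 at 70.6 mg/kg, and 4.48, 4.67 and 4.79 at 706 mg/kg. All groups overlapped (0 of 15 pairs free of overlap, where 1.68% of all probe sets had at least 1). The order of the means was 0.71, 0.07, 70.6, 7.06 mg/kg, vehicle and 706 mg/kg, with no neighbour differing beyond its spread.

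The Cyp4a8 mean was 4.65 ± 0.14 at 706 mg/kg and 4.72 ± 0.25 in vehicle livers (SD, n = 6 each), a difference of -0.07 (-0.27 to 0.14; limma adjusted p = 1), and single arrays left out moved it between -0.15 and -0.01. The largest difference was 0.17 at 0.71 mg/kg (-0.03 to 0.38; limma adjusted p = 1). The check probe set gave the opposite sign at each of the 4 lower doses, and at 706 mg/kg its mean was 4.48 ± 0.24, against 4.79 ± 0.29 in vehicle livers, a difference of -0.31 (-0.67 to 0.06; limma adjusted p = 1). The Cyp4a8 probe sets correlated weakly over arrays within groups (r = 0.345, permutation p = 0.0454, 0.0756 after adjustment over 5 pairs of probe sets).

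**Figure D1:**
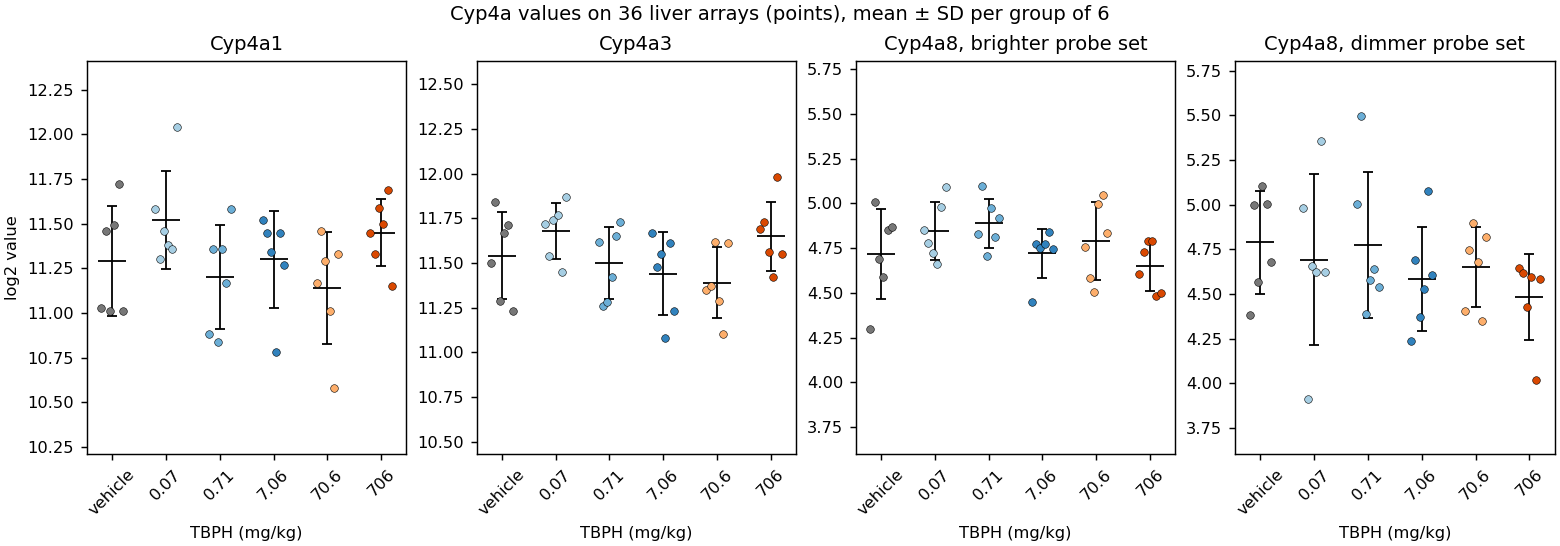
Log2 values (vertical axis) of the 4 Cyp4a probe sets on every array, by group from vehicle to 706 mg/kg; points are arrays, horizontal bars are means and whiskers are 1 SD (n = 6 per group). The groups overlap in every panel.

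Across the 3 genes and 5 doses, 0 of 15 comparisons with vehicle passed the adjusted threshold, where 0% of all probe sets did so. None of the 15 had an unadjusted limma p under 0.05, against 3.07%, 3.98%, 3.48%, 5.24% and 3.48% of all probe sets from the lowest to the highest dose. All 15 intervals included 0, and they ran between 0.732-fold and 1.45-fold. A slope over dose rank was -0.0057 log2 per step for Cyp4a1, -0.01 for Cyp4a3 and -0.02 for Cyp4a8 (limma adjusted p = 0.999, 0.998 and 0.998; 0% of probe sets called). A test for any difference among the groups gave F = 1.84, 2.11 and 1.60 for the same genes (limma adjusted p = 1 for each; 0% called). Exact permutation tests of the 15 differences, 6 arrays against 6, gave adjusted p-values of at least 0.768.

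**Figure D2:**
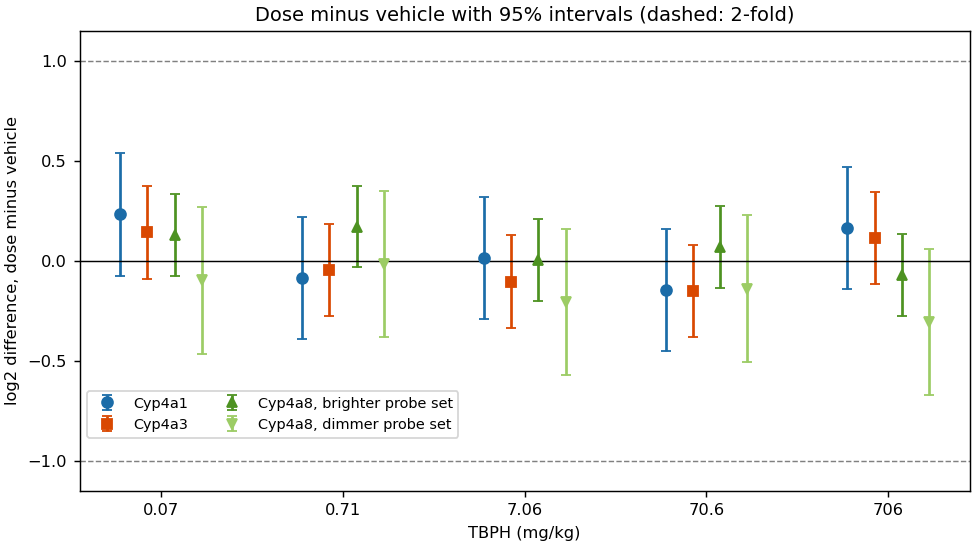
Log2 difference of each dose minus vehicle (vertical axis) with 95% limma intervals, by TBPH dose; dashed lines mark 2-fold. Every interval includes 0 and lies inside 2-fold.

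Among all 15 pairs of groups, 0 of 45 comparisons passed the adjusted threshold, and 7 had an unadjusted limma p under 0.05. Cyp4a1 and Cyp4a3 were both lower at 70.6 than at 0.07 mg/kg, by log2 differences of -0.38 and -0.29 (limma adjusted p = 0.999 for both; 3.61% of all probe sets had an unadjusted p under 0.05). Both were also higher at 706 than at 70.6 mg/kg, by 0.31 and 0.26 (limma adjusted p = 1 for both; 3.35% of all probe sets), and the Cyp4a1 difference was 0.20 without replicate 5 of 70.6 mg/kg, the array apart in GAPDH. These pairs share groups, and the genes share arrays, so they are not independent of each other. The other 3 were Cyp4a1 at 0.71 against 0.07 mg/kg (-0.32), Cyp4a3 at 7.06 against 0.07 mg/kg (-0.25) and Cyp4a8 at 706 against 0.71 mg/kg (-0.24), where 3.51%, 3.13% and 2.67% of all probe sets had an unadjusted p under 0.05. In the pairs of doses where no Cyp4a gene had one, the share of all probe sets was 2.64% (706 against 0.07 mg/kg), 2.83% (7.06 against 0.71), 3.39% (70.6 against 0.71), 4.15% (70.6 against 7.06) and 2.68% (706 against 7.06).

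Cyp4a1 and Cyp4a3 varied more between arrays of a group than most probe sets of like brightness. The SD within groups was 0.277 for Cyp4a1, above 93.7% of the 462 probe sets within 0.5 log2 of its level, whose median was 0.103. It was 0.206 for Cyp4a3, above 91.9% of 385 such probe sets (median 0.101), and 0.180 for Cyp4a8, above 67.8% of 4806 (median 0.161). From the lowest to the highest of all 36 arrays, Cyp4a1 spanned 2.74-fold, Cyp4a3 1.86-fold and Cyp4a8 1.74-fold. The group means accounted for 21.4%, 24.4% and 20.1% of the variance of these genes, against a median of 11.2% over all probe sets. The test for any difference among the groups, given above, bears on these shares. It called none of the 3 genes, and its unadjusted limma F test p was 0.13, 0.0868 and 0.185. The Cyp4a8 values depended on the probe set: on the check probe set the SD was 0.3345, above 96.8% of 4959 probe sets (median 0.161). That probe set spanned 3-fold, and group means accounted for 10.8% of its variance. The SDs and spans are descriptions with no test.

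**Figure D3:**
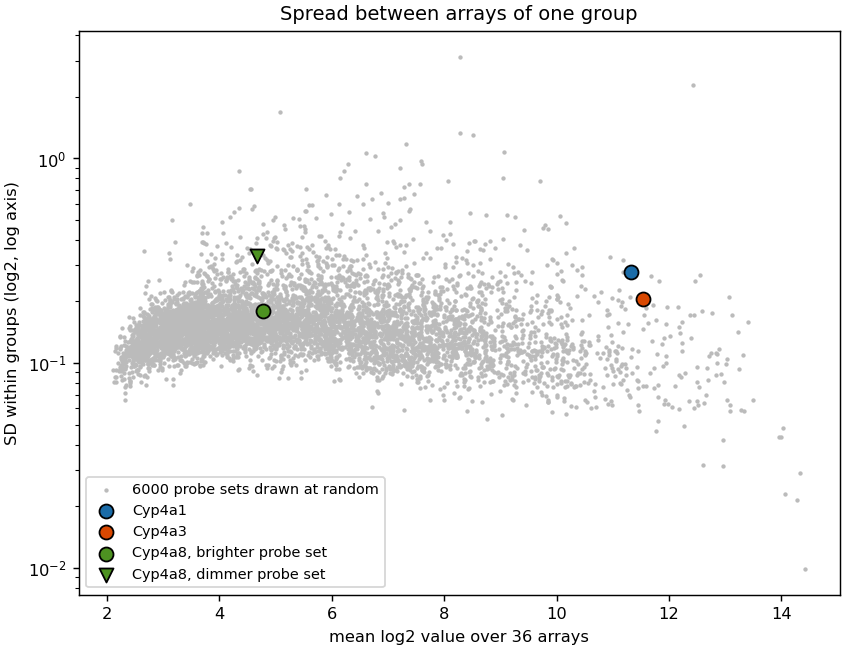
SD within groups (vertical, log axis) against the mean log2 value over 36 arrays for the Cyp4a probe sets (coloured) and for 6000 probe sets drawn at random (grey). Cyp4a1 and Cyp4a3 lie above most grey points of their level, at 0.277 and 0.206, as does the dimmer Cyp4a8 probe set, at 0.3345.

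The spread of Cyp4a1 and Cyp4a3 was shared: arrays on which 1 was above its group mean tended to have the other above it too. With group means removed, r was 0.663 over the 36 arrays (permutation p = 7e-05, 0.00021 adjusted over the 3 pairs of genes) and Spearman's rho was 0.679 (permutation p = 5e-05, adjusted 0.00015). Without the 2 arrays farthest from the median of Cyp4a1, r was 0.564 (permutation p = 0.0025), and without the 2 arrays apart in GAPDH it was 0.644. Within single groups of 6, r was 0.839 in vehicle and 0.720, 0.247, 0.893, 0.774 and 0.405 from the lowest to the highest dose, positive in all 6.

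Cyp4a8 did not share this pattern detectably. The gene was read at a dim level by probe sets that correlated weakly (r = 0.345), so shared variation could be missed. The r of Cyp4a8 was 0.0948 with Cyp4a1 (rho 0.07; permutation p = 0.631, adjusted 0.631) and -0.22 with Cyp4a3 (rho -0.247; permutation p = 0.252, adjusted 0.378). Without the 2 farthest arrays these were 0.29 and -0.171. The sign of both changed from group to group, between -0.799 and 0.720 with Cyp4a1 and between -0.669 and 0.217 with Cyp4a3. Ranked by r among 14216 other genes, Cyp4a3 stood at place 20 for Cyp4a1 and Cyp4a1 at place 23 for Cyp4a3, and Cyp4a8 stood at places 4478 and 11882. The probe set shared by Cyp4a3 and Cyp4a2 followed Cyp4a3 (r = 0.676) and Cyp4a1 (r = 0.581), with permutation p of 0.00015 and 0.00202 adjusted over 5 pairs of probe sets. It is annotated to Cyp4a3 too and was read on the same arrays. These values are therefore no separate support for the shared spread and say nothing of Cyp4a2 alone.

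**Figure D4:**
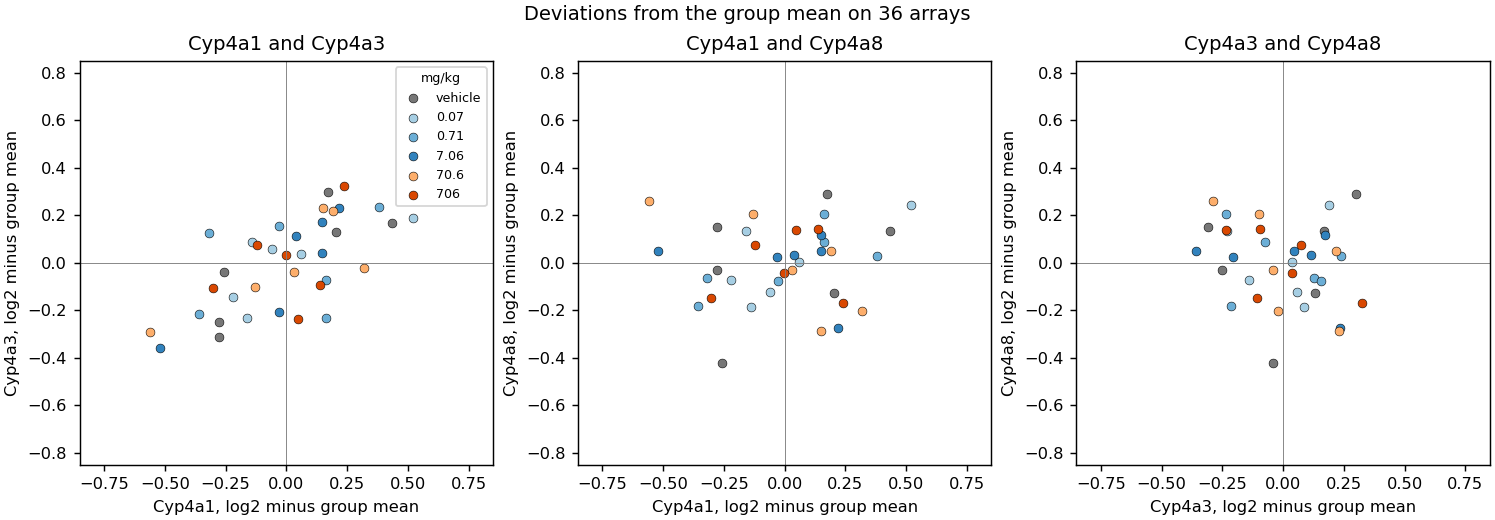
Deviation of each array from its group mean (log2, both axes) for the 3 pairs of Cyp4a genes; points are the 36 arrays, coloured by group. Cyp4a1 and Cyp4a3 lie along a rising diagonal (r = 0.663), the pairs with Cyp4a8 do not (r = 0.0948 and -0.22).

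Cyp4a1 also moved with the GAPDH measure: it was lower on arrays with a larger 3′ minus 5′ difference (r = -0.568, rho = -0.581; permutation p = 0.00063, adjusted over the 3 genes 0.00189). Without the 2 farthest arrays r was -0.456. For Cyp4a3 r was -0.201 (permutation p = 0.242, adjusted 0.363) and for Cyp4a8 -0.0879 (p = 0.676 by permutation, adjusted 0.676). With this measure removed, the correlation of Cyp4a1 and Cyp4a3 was as large (r = 0.680), and with it as a covariate no dose difference of a Cyp4a gene passed.

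Of 10 marker lists tested against the 3 genes, 30 relations in all, 1 passed adjustment. The mean of 5 lymphocyte markers, which ran from 4.74 to 5.27 over the arrays, fell as Cyp4a3 rose (r = -0.549, rho = -0.572; permutation p = 0.00144, adjusted 0.0432; r = -0.543 without the 2 farthest arrays and -0.49 without the 2 arrays apart in GAPDH). All 5 markers had a negative r with Cyp4a3, from -0.106 for Cd79b, a part of the B cell receptor, to -0.646 for Cd3g, a chain of the T cell receptor complex, both named after their values were seen. The next lowest r was -0.358. The markers were read near the median level of all probe sets (5.09), at means from 4.711 to 5.183. Whether they followed lymphocyte content was not tested. By group the list's range was 4.76 to 5.17 in vehicle livers, 4.74 to 4.95, 4.75 to 5.17, 4.82 to 5.09, 4.78 to 5.27 and 4.92 to 5.07 from the lowest to the highest dose. Its part in the Cyp4a3 values was not tested.

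No relation of the Cyp4a genes to the receptor pair passed adjustment. Ppara, the PPAR alpha gene, had r = 0.448 with Cyp4a3 (rho 0.422; permutation p = 0.0136, adjusted over 6 relations 0.0815; 0.384 without the 2 farthest arrays) and r = 0.128 with Cyp4a1 (permutation p = 0.488, adjusted 0.586). For Rxra, its partner receptor, r was -0.28 with Cyp4a3 and -0.214 with Cyp4a1 (permutation p, adjusted, 0.306 and 0.479). Ppara was read near the median level of all probe sets (mean 5.255 against 5.09), and Rxra at a mean of 6.449. A relation could therefore be missed. At 706 mg/kg against vehicle, Ppara differed by -0.23 (-0.63 to 0.17) and Rxra by 0.18 (-0.01 to 0.37), both with a limma adjusted p of 1.

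Other PPAR alpha targets, of fatty acid oxidation, lipid storage, transport and signalling, were read in the same way. Of 51 listed genes 46 were measured, and none passed the adjusted threshold at any dose. At 706 mg/kg 37 were higher and 9 lower than in vehicle livers, with a median log2 difference of 0.05, where 7553 of 14217 genes were higher and the median was 0.0059. The number higher was 36 at 0.07 mg/kg (median 0.06), 20 at 0.71, 15 at 7.06 and 24 at 70.6 mg/kg, where 7341, 7592, 7731 and 7785 of the 14217 genes were higher. Without adjustment, 5 of the 46 were higher and 1 lower at 706 mg/kg at limma p under 0.05, where 202 and 242 of all genes were. All listed genes, here and in the next lists, were read on the same arrays, so these counts are not of independent genes. Many of the targets also varied with Cyp4a3 within groups, and no set test was run. The smallest p at 706 mg/kg belonged to Eci1, the mitochondrial enoyl-CoA isomerase (log2 difference 0.31, interval 0.10 to 0.52). Next was Acot2, a mitochondrial acyl-CoA thioesterase (log2 difference 0.22, interval 0.05 to 0.38), and both had a limma adjusted p of 1.

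Of 30 listed genes of the omega-oxidation route and other Cyp4 genes 24 were measured. At 706 mg/kg 12 were higher and 12 lower than in vehicle livers, where 7553 of 14217 genes were higher. None passed, as for all other genes. The number higher was 16, 11, 10 and 8 from 0.07 to 70.6 mg/kg, where 7341, 7592, 7731 and 7785 of all genes were. The smallest p at 706 mg/kg belonged to Aldh1a1, an aldehyde dehydrogenase (log2 difference 0.24), and Acsl4, an acyl-CoA synthetase (log2 difference 0.10), both with a limma adjusted p of 1. Of 22 receptor and cofactor genes 20 were measured, with 14 higher and 6 lower at 706 mg/kg and none passing. From 0.07 to 70.6 mg/kg 13, 12, 16 and 11 of them were higher, so the count was not highest at the top dose. Nrip1, a corepressor of nuclear receptors, had the smallest p at 706 mg/kg (log2 difference 0.20, limma adjusted p = 1), followed by Rxra.

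Across arrays within groups, many PPAR alpha targets followed Cyp4a1 and Cyp4a3, which is a description over 36 shared arrays with no test. The shares of all genes given beside them were not matched for level. Most targets were read above the median level of all probe sets (5.09), and the part of level in these shares was not tested. With Cyp4a3 the median r of the 46 targets was 0.355, 37 were above 0, and 13 reached 0.5, where 1.19% of all genes did and their median was -0.00152. With Cyp4a1 the median was 0.256, 38 were above 0 and 10 reached 0.5, where 1.64% of all genes did and their median was -0.028. With the GAPDH measure removed, 4 targets reached 0.5 with Cyp4a1 (0.387% of all genes) and 14 with Cyp4a3 (1.75%). With Cyp4a8 the median was -0.162 (all genes -0.0333), and 0 of 46 reached 0.5, where 0.633% of all genes did.

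By function, Hadhb of the mitochondrial trifunctional protein (r = 0.738), the peroxisomal thioesterase Acot4 (0.731) and the carnitine palmitoyltransferase Cpt2 (0.727) were among those that followed Cyp4a3. The carnitine-acylcarnitine carrier Slc25a20 had the highest r of the list with Cyp4a1 (0.684; 0.521 with the GAPDH measure removed). Acot4 and Cpt2 were singled out after their values were seen. In the other lists the highest r with Cyp4a1 belonged to Cyp2e1, another fatty acid hydroxylase of the liver (0.549), and to Ppargc1b, a coactivator (0.606). With the GAPDH measure removed these were 0.481 and 0.368, and the number of genes at 0.5 or more with Cyp4a1 was 1 in place of 4 in the omega-oxidation list and 0 in place of 1 in the receptor list (0.387% of all genes).

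**Figure D5:**
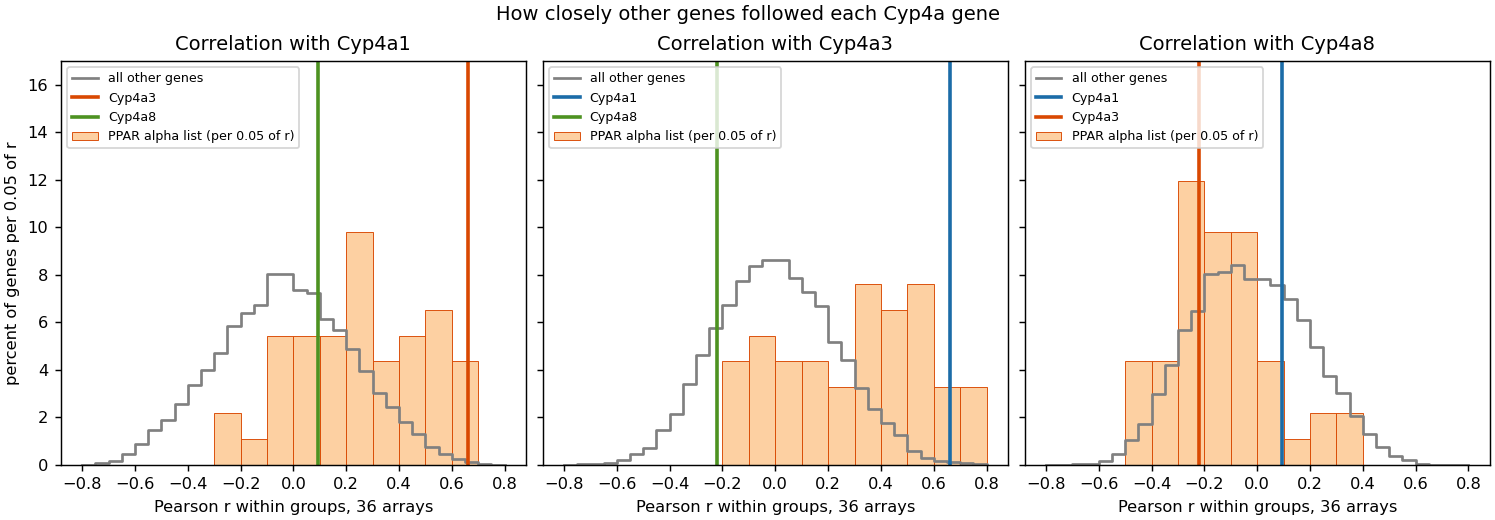
Distribution of Pearson r within groups (horizontal axis) with Cyp4a1, Cyp4a3 and Cyp4a8, as percent of genes per 0.05 of r: all other genes (grey line), PPAR alpha targets (bars) and the other Cyp4a genes (vertical lines). The targets lie to the right of all genes for Cyp4a1 and Cyp4a3 (medians 0.256 and 0.355) and to the left for Cyp4a8 (-0.162).

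The genes most like each Cyp4a gene were picked as the 5 highest r over the 36 arrays, so their r is a description. For Cyp4a1 they were Acad11, an acyl-CoA dehydrogenase (0.754), Idh1, a cytosolic NADPH-forming isocitrate dehydrogenase (0.744), Pdha1 of the pyruvate dehydrogenase complex (0.738), the glutathione transferase Gsta1 (0.738) and the hydroxysteroid dehydrogenase Akr1c14 (0.725). The lowest r was that of Ndufa4, a respiratory chain subunit (-0.759). With the GAPDH measure removed, these 6 lay at 0.693, 0.639, 0.576, 0.602, 0.557 and -0.656. For Cyp4a3 they were the RNA methyltransferase Nsun2 (0.768), antithrombin, Serpinc1 (0.762), the chaperonin subunit Cct4 (0.746), Ociad1 (0.745) and Hadhb (0.738), and the lowest was the complement gene C6 (-0.726). For Cyp4a8 they were Smgc (0.664), Miat (0.63), Rsph9 (0.629), Alk (0.627) and Cbln2 (0.626), and the lowest was Afdn (-0.679). Apart from Miat, a long non-coding RNA, the genes highest in r with Cyp4a8 were read below the median level of all probe sets, as Cyp4a8 was.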

How the data were processed

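The authors deposited 1 table of log2 values, per probe set and array. The submitters' processing notes list RMA and affy with no version; a genome build is not given in the sources used here. Array controls (57 of 31099 probe sets) were dropped, and genes were named only where the platform annotation gave a probe set 1 symbol (20826 of them). Groups were compared with limma 3.58.1 (R 4.3.3), fitting 1 mean per group to the 36 arrays, two-sided, with Benjamini-Hochberg adjustment over 31042 probe sets at 0.05. The R/maanova package named by the study's design text was not used here. Correlations used deviations from group means and 100000 two-sided permutations of arrays within groups. Arrays give no read depth, so their number limits the precision. Genes named were the Cyp4a genes, the 5 highest and 1 lowest by r with each, and per list the 2 smallest p at 706 mg/kg and the highest r with Cyp4a1, besides Ppara and Rxra; Acot4, Cpt2, Cd79b and Cd3g fall outside this rule and were named after their values were seen. Members, lists and rules were chosen with earlier results of these data known. The fit was tested on simulated data with added changes larger than the Cyp4a differences from vehicle. That test does not show how well changes of the size seen here would be found. Listed genes with no probe set of their own were not analysed here.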

Additional observations from a re-analysis of the deposited data

Results flagged for a closer look

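Of 30 combinations of group and probe set (the 4 Cyp4a probe sets and the one shared with Cyp4a2), 3 held an array whose gap to its nearest neighbour exceeded the 95% critical value of Dixon's test for 6 arrays, and chance gives about 5% of groups. Cyp4a1 was lowest on replicate 4 of 7.06 mg/kg, at 10.78. Cyp4a8 was lowest on replicate 1 of 7.06 mg/kg, at 4.447, and its check probe set was lowest on replicate 5 of 706 mg/kg, at 4.02.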

How the results depend on the processing

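No probe set passed the adjusted threshold at any dose against vehicle under the settings in which all probe sets were counted. No Cyp4a gene did at any dose under any setting tried. With the GAPDH covariate only the Cyp4a genes were read. Leaving out 1 array at a time, the number of probe sets at unadjusted p under 0.05 ran from 725 to 2052 over the 5 doses. At 706 mg/kg it was 1913 without replicate 3 of that dose and 1856 with array weights, against 1080, and at 7.06 mg/kg 1649 with array weights, against 1079. Without dim probe sets, where fewer were tested, it was 337, 425, 349, 851 and 386 from the lowest to the highest dose, against 953, 1235, 1079, 1626 and 1080. The replicate block changed no call (927, 1210, 1079, 1580 and 1034 probe sets at unadjusted p, low to high dose). Same-numbered arrays correlated at -0.016 on average (from -0.405 to 0.269), against 0.00338 for others, and 4 of 36 were closest to one of their own number. No pairing by replicate number was seen on average, but a weak or partial one could be missed.
Some signs turned. With the other probe set of Cyp4a8 its differences were -0.0975, -0.01448, -0.204 and -0.1384 at 0.07, 0.71, 7.06 and 70.6 mg/kg, and its r with Cyp4a3 was 0.0474. The shared probe set gave 0.02166 for Cyp4a3 at 0.71 mg/kg. Array weights gave -0.002607 for Cyp4a1 and -0.001321 for Cyp4a8 at 7.06 mg/kg. The slope of Cyp4a1 was 0.005858 without the 2 arrays apart in GAPDH. Leaving out 1 array at a time, the ranges that crossed 0 were Cyp4a1 at 0.71 mg/kg (-0.1617 to 0.001139) and 7.06 mg/kg (-0.03861 to 0.1213), Cyp4a3 at 0.71 mg/kg (-0.1071 to 0.01505), Cyp4a8 at 7.06 mg/kg (-0.08079 to 0.06129) and 70.6 mg/kg (-0.01399 to 0.1281), the slope of Cyp4a1 (-0.01572 to 0.005155) and its r with Cyp4a8 (-0.00691 to 0.24). The cause was not tested.
Within groups of 6, r of Cyp4a1 and Cyp4a3 missed the threshold in vehicle (0.839, permutation p = 0.0611) and at 0.07 (0.720), 0.71 (0.247), 70.6 (0.774) and 706 mg/kg (0.405), where fewer arrays were tested; over all arrays with 1 left out it stayed between 0.613 and 0.716. Within groups, r of Cyp4a8 turned sign with Cyp4a1 at 7.06 (-0.326) and 70.6 mg/kg (-0.799), and with Cyp4a3 in vehicle (0.217) and at 0.07 mg/kg (0.0184). Leaving out dim probe sets removed Cyp4a8, which then had no value. The differences between pairs of doses at unadjusted p under 0.05 kept their direction, and none passed the adjusted threshold, under the same alternatives; these, the shared probe set and the GAPDH covariate were chosen after seeing the data.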
